A study of Mus musculus with 157 samples.

Results

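The response to 3 inflammatory particles was examined in macrophages labelled Tfe3KO. The members are the 12 RNA-seq libraries whose titles carry that genotype in the particle experiment, of 157 samples in the series, and the 12 libraries titled Tfe3WT in the same experiment serve as the comparison. All are mouse macrophages grown from bone marrow, and each genotype has 4 groups of 3 libraries. Tfe3KO cells received PBS as the control, MSUc (monosodium urate crystals), CPPD (calcium pyrophosphate dihydrate crystals) or Silica (silica nanoparticles), the particles at 250 ug per mL, and Tfe3WT cells received the same. Each particle was set against the 3 Tfe3KO PBS libraries, so the 3 comparisons share their controls.

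The labels limit what the groups can stand for. The genotype field of the libraries titled Tfe3WT also reads Tfe3KO, so the groups follow the titles. The exposure time, the culture medium for these mice, their age and the design of the deletion are not given in the sources used here. No label says that the 3 libraries of a group came from separate cultures or animals, so the p-values measure the spread between these libraries, part of which may be technical. The Tfe3KO libraries numbered 1 differ from the others of their group in sex-linked transcripts, given with the depths below. The Tfe3 transcript was not lost in the libraries labelled Tfe3KO. It was listed at 70.0, 66.7 and 68.4 TPM (transcript abundance scaled for length and library size) in the Tfe3KO PBS libraries and at 94.2, 97.1 and 104 TPM in Tfe3WT PBS. The ranges do not overlap, but a value summed over the whole transcript cannot show whether a deleted part is missing, so it does not check the label.

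TFE3, TFEB, MITF and TFEC form the MiT/TFE family of transcription factors, which bind the E-box CACGTG and are known for switching on genes of lysosomes and autophagy. In macrophages, TFE3 and TFEB are held in the cytoplasm by mTORC1, which the Rag GTPases and folliculin recruit to lysosomes, and they enter the nucleus when lysosomes are stressed or damaged. Urate, pyrophosphate and silica particles are taken up into phagosomes, can rupture lysosomes, and are known triggers of inflammasomes and chemokine release. Other families read other motifs: NF-kappaB at inflammatory genes, interferon regulatory factors at interferon-stimulated genes, NRF2 at antioxidant genes and ATF4 at genes of the integrated stress response.

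The promoters of 8 genes are shown because these genes stand for groups whose responses are described below. Each line gives the 150 bases before the annotated start, 5′ to 3′ on the gene's own strand, from RefSeq on GRCm38.p6. Capitals mark every match, on either strand, to the motif searched for that gene: GGG and TTTCC parted by any 2 bases for the chemokines Cxcl1 and Cxcl2, an NF-kappaB motif, GAAA repeated after any 2 bases for the interferon-stimulated Isg15, TGATGNAA for the ATF4 target Asns, and CACGTG for the others. The first matching bases lie 89 and 71 bases before the start in Cxcl1, 97 and 78 in Cxcl2, 78, 72 and 66 in Isg15 (where the matches overlap), 23 in Asns, 131 in Atp6v1a, 86, 70, 36, 26 and 18 in Mfsd1, 71 and 45 in Mcoln1, and 45 and 37 in Arfgef2.
Cxcl1, chr5:90891095-90891244, forward strand: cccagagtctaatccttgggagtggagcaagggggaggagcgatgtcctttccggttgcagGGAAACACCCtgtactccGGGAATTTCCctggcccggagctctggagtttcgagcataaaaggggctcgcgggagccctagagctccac
Cxcl2, chr5:90903749-90903898, forward strand: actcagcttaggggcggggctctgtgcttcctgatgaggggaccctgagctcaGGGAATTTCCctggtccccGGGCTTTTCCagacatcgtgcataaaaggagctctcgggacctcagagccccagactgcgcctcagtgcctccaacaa
Isg15, chr4:156200819-156200968, reverse strand: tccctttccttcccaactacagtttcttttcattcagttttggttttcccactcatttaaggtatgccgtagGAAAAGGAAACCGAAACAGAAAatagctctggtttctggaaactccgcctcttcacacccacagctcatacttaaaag
Asns, chr6:7693210-7693359, reverse strand: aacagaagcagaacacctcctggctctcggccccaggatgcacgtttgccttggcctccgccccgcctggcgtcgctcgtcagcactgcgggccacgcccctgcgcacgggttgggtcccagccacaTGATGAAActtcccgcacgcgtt
Atp6v1a, chr16:44139260-44139409, reverse strand: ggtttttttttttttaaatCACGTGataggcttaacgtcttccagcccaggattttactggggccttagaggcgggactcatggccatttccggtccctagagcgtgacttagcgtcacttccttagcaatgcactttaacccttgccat
Mfsd1, chr3:67582618-67582767, forward strand: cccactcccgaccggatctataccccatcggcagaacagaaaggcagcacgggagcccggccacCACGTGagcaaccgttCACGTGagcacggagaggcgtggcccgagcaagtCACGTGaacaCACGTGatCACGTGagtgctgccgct
Mcoln1, chr8:3500369-3500518, forward strand: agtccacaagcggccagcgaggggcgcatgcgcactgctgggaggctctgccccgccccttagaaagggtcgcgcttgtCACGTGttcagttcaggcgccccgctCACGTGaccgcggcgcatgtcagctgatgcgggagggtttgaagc
Arfgef2, chr2:166805431-166805580, forward strand: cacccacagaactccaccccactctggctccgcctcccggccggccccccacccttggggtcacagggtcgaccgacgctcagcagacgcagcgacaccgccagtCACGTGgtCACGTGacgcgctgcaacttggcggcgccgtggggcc
A match is a description of these letters and not evidence of binding. Over the 9493 tested genes with a matched promoter (250 bases before to 50 after the start), 1.71% held the NF-kappaB motif, 3.23% the GAAA repeat, 2.11% TGATGNAA and 10.5% CACGTG. Among list members with a matched promoter, the NF-kappaB motif was found in 7 of 16 cytokine and chemokine genes, the GAAA repeat in 14 of 23 interferon-stimulated genes and TGATGNAA in 5 of 21 genes of the integrated stress response. CACGTG was found in 4 of 12 subunits of the proton pump and 11 of 32 lysosomal hydrolases.

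The Tfe3KO libraries held 8854634 to 15150734 reads recovered from the deposited values, with a median of 12475416. Macrophage identity genes summed to 38909 to 45496 TPM in the PBS libraries and to at least 26775 TPM in each particle group, so markers of the labelled cell type were abundant in all 12. The 4 Tfe3KO libraries numbered 1, one in each group, stood apart: Xist, expressed from the inactive X chromosome of females, lay between 57.1 and 115 TPM in them, 1.17 and 6.28 TPM in the other 8, and 0 and 0.243 TPM in the 12 Tfe3WT libraries. The Y-linked Ddx3y ran the other way, at 1.21 to 1.96, 18.4 to 56.6 and 16.5 to 41.2 TPM. Every group holds 1 such library, so they are balanced between particles within Tfe3KO but not between genotypes. Some results are also given without them.

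Each particle changed most measured genes in Tfe3KO cells. Differences are of mean log2(TPM + 1), so that 1 is a doubling for an abundant gene and less than the true change for a scarce one, and a call is a limma test with a Benjamini-Hochberg adjusted p under 0.05 over 12796 genes. MSUc changed 62.5% of them, with 2568 (20.1%) rising and 5430 (42.4%) falling. CPPD changed 61.2%, with 2471 (19.3%) rising and 5359 (41.9%) falling. Silica changed 69.4%, with 3678 (28.7%) rising and 5203 (40.7%) falling. The excess of falls depended on the scale: the median gene differed by -0.21, -0.22 and -0.12 on the deposited scale, and median-of-ratios scaling, which moved those medians up by 0.206, 0.214 and 0.122, gave 3734 rises and 3658 falls for MSUc, 3746 and 3509 for CPPD, and 4403 and 4451 for Silica. Counts of strong responses were smaller. Rises of at least 1 log2 numbered 696 for MSUc (5.44% of genes tested), 723 for CPPD (5.65%) and 1031 for Silica (8.06%), and falls that large numbered 1102 (8.61%), 1101 (8.6%) and 1827 (14.3%).

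Set directly against each other, the crystals differed at fewer genes than either did from silica. CPPD and MSUc differed at 3260 genes (25.5%), of which 1582 (12.4%) were higher and 1678 (13.1%) lower with CPPD. Silica differed from MSUc at 8144 genes (63.6%), of which 4404 (34.4%) were higher and 3740 (29.2%) lower with Silica, and from CPPD at 8086 (63.2%), of which 4350 (34%) were higher and 3736 (29.2%) lower. After median-of-ratios scaling the Silica contrasts split the other way, with 3981 higher and 4181 lower than MSUc and 3811 higher and 4237 lower than CPPD. Transcript length moved with the Silica contrasts: transcripts under 1000 bases had a median difference of 0.31 from both crystals, and those over 4000 bases 0.03 from MSUc and 0.05 from CPPD. The part of length in any single result was not tested.

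Chemokine and cytokine genes rose strongly in Tfe3KO cells, and the particles ranked them differently. Of 27 tested members of this list, 20 rose and 1 fell with MSUc, 24 rose and none fell with CPPD, and 24 rose and 1 fell with Silica, with median differences of 1.81, 2.68 and 3.04. The share of all genes that rose was 20.1%, 19.3% and 28.7%. Cxcl2, a neutrophil chemoattractant, was at 7.87, 7.17 and 6.57 TPM with PBS, 368, 339 and 438 with MSUc, 701, 810 and 808 with CPPD, and 1881, 1506 and 2311 with Silica. The groups form an ascending order without overlap. Its rises were 5.54, 6.56 and 7.84 (each ± 0.13 SE, n = 3 libraries a group, limma adjusted p = 8.69e-17, 6.61e-18 and 2.1e-19), and Silica exceeded CPPD by 1.28 and MSUc by 2.30. Cxcl1, its neighbour on chromosome 5, followed the same order, at 0.796 to 1.14 TPM with PBS, 25.7 to 32.6 with MSUc, 116 to 146 with CPPD and 282 to 351 with Silica. Cxcl3, a further member of the cluster, did not: it was listed at 0, 0 and 0.417 TPM with PBS, 18.3, 23.1 and 16.1 with MSUc, 73.2, 73.7 and 51.2 with CPPD, and 9.12, 9.12 and 6.62 with Silica. Silica thus gave the lowest Cxcl3 of the particles, 2.85 log2 below CPPD.

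Ccl7, Ccl2, Ccl3 and Ccl4, chemokines of the CC class, were highest with silica. Ccl7, a monocyte chemoattractant, was at 2.43, 6.89 and 4.52 TPM with PBS, 44.0, 53.3 and 73.3 with MSUc, 22, 43.1 and 37.7 with CPPD, and 1096, 1010 and 1232 with Silica. The ranges with the crystals adjoin, while the lowest Silica library was far above both. The rises were 3.42, 2.68 and 7.71 (± 0.30), and Silica exceeded MSUc by 4.29 and CPPD by 5.03. Ccl2, which shares its receptor with Ccl7, rose by 2.99, 2.63 and 6.66. Ccl3, which attracts monocytes and T cells, was at 42.0, 48.7 and 41 TPM with PBS, 503, 531 and 508 with MSUc, 687, 847 and 843 with CPPD, and 5296, 4526 and 5907 with Silica. Its rises were 3.52, 4.14 and 6.86 (± 0.13), and Ccl4, its close relative, rose by 2.60, 3.94 and 6.97.

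Tnf and Il1a were highest with CPPD, while Il1rn, Il10 and Osm were highest with Silica. Il1rn, the interleukin-1 receptor antagonist, was at 14.1, 16.3 and 14.9 TPM with PBS and rose by 5.33, 5.61 and 6.2 (± 0.14) to 563 to 697 TPM with MSUc, 721 to 862 with CPPD and 988 to 1366 with Silica. Tnf, the macrophage cytokine that activates NF-kappaB in target cells, was highest with CPPD at 383 to 431 TPM, against 14.5 to 22.2 with PBS, 61.0 to 68.0 with MSUc and 199 to 265 with Silica. Il1a, an alarmin of the interleukin-1 family, was at 0.161 to 0.655 TPM with PBS, 0.371 to 0.778 with MSUc (a difference of 0.31, adjusted p = 0.256), 19.6 to 25.1 with CPPD and 2.82 to 7.30 with Silica. Il10, an anti-inflammatory cytokine, rose with each particle, by 2.33, 2.65 and 3.73 (± 0.25). Osm, a cytokine of the interleukin-6 family, was lower with CPPD (15.7 to 16.8 TPM) than with MSUc (37.9 to 41.5) or Silica (45.0 to 59.1), from 3.89 to 4.79 with PBS.

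Markers of neutrophils moved with silica, and the summed level of dendritic cell markers rose with every particle. Of 9 tested neutrophil markers, 6 rose with Silica and none fell (0 and 1 with MSUc, 1 and 1 with CPPD), and their summed level was 985 to 1311 TPM in the Silica libraries against 222 to 398 with PBS, 302 to 467 with MSUc and 317 to 602 with CPPD. S100a9, a calcium-binding protein abundant in neutrophils, was at 182, 144 and 80.5 TPM with PBS and 563, 640 and 418 with Silica, a rise of 2.04 ± 0.30. S100a8, its partner, rose with Silica by 1.89 ± 0.33, and its differences with MSUc (0.12) and CPPD (0.56) did not pass. The defining granule genes Elane and Mpo were detected in PBS libraries too, at means of 5.45 and 6.32 TPM. Dendritic cell markers summed to 9.92 to 17.5 TPM with PBS, 22.8 to 36.9 with MSUc, 21.5 to 29.2 with CPPD and 23.3 to 42.9 with Silica, and 3, 2 and 4 of 5 tested rose while none fell. The rest of that list of 8 did not reach the level needed for testing. For both marker lists, 20.1%, 19.3% and 28.7% of all genes rose with MSUc, CPPD and Silica, and the lists are short. Mast cell and basophil markers summed to 15.4 to 17.7 TPM with Silica against 2.51 to 3.39 with PBS, with Mcpt4 under 0.05 TPM in all 12 libraries. In bulk samples, more or fewer cells of a type and more or less RNA per cell cannot be told apart, and the part of these cells in the values of inflammatory and macrophage identity genes was not tested.

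**Figure D1:**
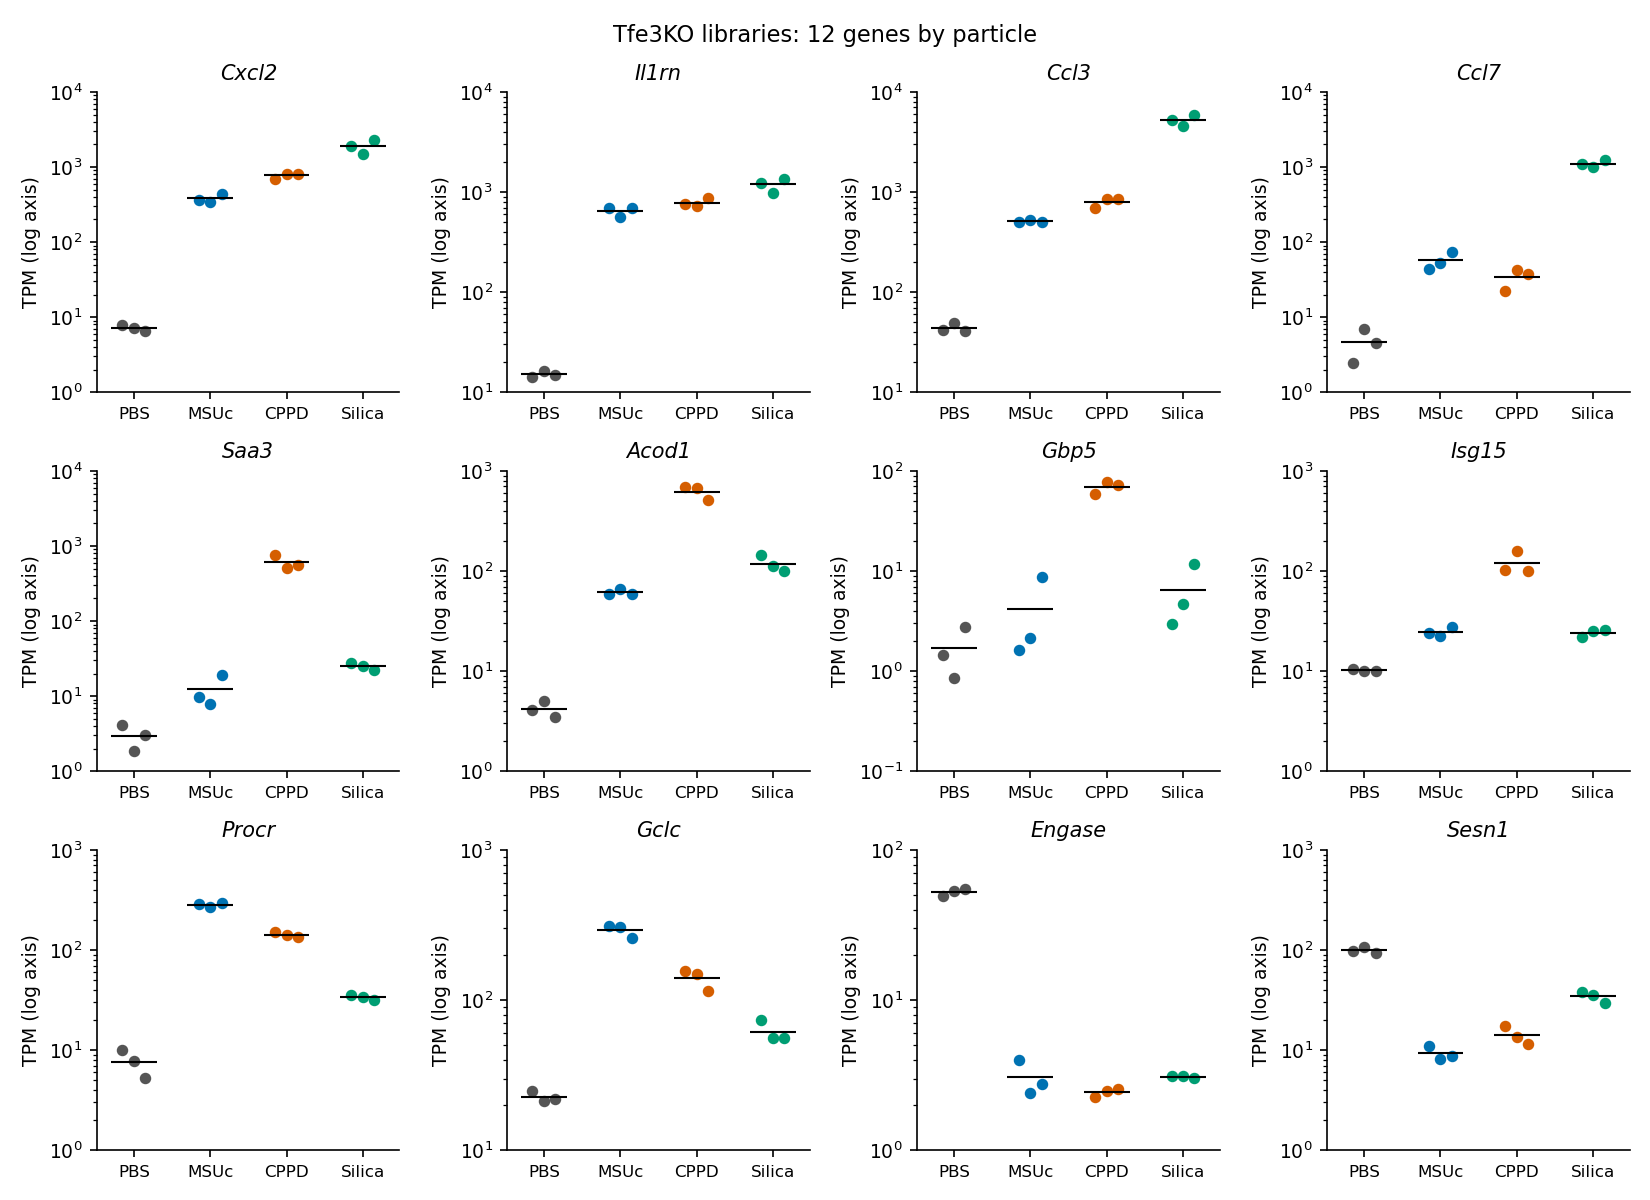
TPM (log axis) of 12 genes in the 12 Tfe3KO libraries by treatment, each point a library and each line the mean of 3. Cxcl2, Ccl3 and Ccl7 peak with Silica, Saa3, Acod1, Gbp5 and Isg15 with CPPD, and Procr and Gclc with MSUc, while Engase and Sesn1 fall with all 3 particles.

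Inflammatory effector genes were higher with CPPD than with MSUc. Of 20 tested effectors, 14 rose with MSUc, 16 with CPPD and 16 with Silica, and 3, 2 and 2 fell (medians 0.96, 2.26 and 1.62), and 15 of them were higher with CPPD than with MSUc, while none was lower. Among all genes 20.1%, 19.3% and 28.7% rose, and 12.4% were higher with CPPD than with MSUc. Saa3, an acute-phase protein, was at 4.09, 1.84 and 3.02 TPM with PBS, 9.73, 7.86 and 19.2 with MSUc, 768, 513 and 550 with CPPD, and 27.8, 24.9 and 22.4 with Silica. The CPPD libraries stood far above all others, with a difference from PBS of 7.28 ± 0.51 and from MSUc of 5.60, and Silica differed from CPPD by -4.54. The rise with MSUc, 1.68, did not pass when the test was run with voom weights. Acod1, which makes the antimicrobial metabolite itaconate, followed the same pattern: 3.48 to 5.07 TPM with PBS, 58.5 to 65.6 with MSUc, 509 to 684 with CPPD and 100 to 144 with Silica. Ptges, the prostaglandin E synthase, rose by 1.83, 4.85 and 1.37 (± 0.17), whereas Ptgs2, the cyclooxygenase upstream of it, rose by 2.94, 5.43 and 5.62 (± 0.19), with overlapping values for Silica (134 to 161 TPM) and CPPD (117 to 141 TPM) and a difference of 0.19 between them (adjusted p = 0.399). Clec4e, a receptor for damaged cells and mycobacterial glycolipid, rose from 16.3 to 36.2 TPM with PBS to 243 to 359, 1024 to 1365 and 602 to 934.

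Inflammasome parts did not all go one way. Nlrp3, the sensor, was at 42.0, 30.9 and 35.4 TPM with PBS and rose by 1.13, 2.46 and 1.40 (± 0.13). Pycard, the adaptor that links it to caspase-1, was at 30.0, 24.9 and 24.5 TPM with PBS and fell by 1.74, 0.81 and 0.97 (± 0.13), to 5.63 to 8.26, 13.3 to 16.9 and 11.9 to 14.1 TPM. Of 18 tested NF-kappaB subunits and brakes, 14 rose and 1 fell with MSUc, all 18 rose with CPPD, and 13 rose and 2 fell with Silica. The rising shares of all genes were 20.1%, 19.3% and 28.7%. Tnfaip3, a deubiquitinase that restrains NF-kappaB, rose by 2.65, 3.03 and 2.43 (± 0.11), and Nfkb1, a subunit, by 1.01, 1.59 and 0.53 (± 0.09). Nfkb1 was therefore higher with CPPD than with Silica by 1.06 log2.

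The interferon-stimulated list separated CPPD from the other particles. Of its 30 members, 29 rose with CPPD and none fell, with a median of 2.09. MSUc raised 6 and lowered none (median 0.26), and Silica raised 6 and lowered 5 (median 0.41), where 20.1% of all genes rose with MSUc and 28.7% with Silica. Under median-of-ratios scaling the counts for MSUc were 9 and 0 and for Silica 12 and 3, and with a replicate block for Silica 11 and 8. In direct contrasts 29 of 30 were higher with CPPD than with MSUc, and 28 of 30 were lower with Silica than with CPPD. Isg15, a ubiquitin-like protein whose promoter with 3 overlapping motif matches is printed above, was at 10.6, 10.1 and 10.1 TPM with PBS, 24.3, 22.4 and 27.4 with MSUc, 102, 160 and 99.5 with CPPD, and 21.7, 25.0 and 25.6 with Silica. MSUc and Silica overlap, CPPD lies above both, and the rises were 1.18, 3.39 and 1.15 (± 0.27).

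Individual members of that list showed the same split. Rsad2, an antiviral enzyme, rose by 2.42, 4.64 and 2.37 (± 0.42), with 103, 211 and 129 TPM in the CPPD libraries. Irf7, the transcription factor that amplifies interferon production, was at 39.5, 40.6 and 32.7 TPM with PBS, 35.6, 38.9 and 32.5 with MSUc, 85.3, 138 and 86.3 with CPPD, and 15.5, 19.0 and 11.0 with Silica. It thus rose with CPPD (1.40 ± 0.22), fell by 1.28 with Silica, and differed by -0.07 with MSUc (adjusted p = 0.796). Gbp5, a GTPase that promotes inflammasome assembly, was at 0.856 to 2.77 TPM with PBS, 1.62 to 8.76 with MSUc (0.74, adjusted p = 0.169), 58.5 to 76.9 with CPPD and 2.94 to 11.7 with Silica. Its difference with CPPD was 4.76 ± 0.46. The rise with Silica, 1.35, did not pass without PBS replicate 2 (1.11) or Silica replicate 3 (0.87).

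Antioxidant genes ran in the opposite order, highest with MSUc. Of 20 tested NRF2 targets, 16 rose and 2 fell with MSUc, 14 rose and 1 fell with CPPD, and 10 rose and 5 fell with Silica (medians 1.2, 0.89 and 0.58). Among all genes 20.1%, 19.3% and 28.7% rose, and 29.2% were lower with Silica than with MSUc. Silica was lower than MSUc at 17 of the 20 and higher at none. CPPD was lower than MSUc at 6 and higher at none, and with a replicate block at 10 and 2. Gclc, the rate-limiting subunit of glutathione synthesis, was at 25.0, 21.1 and 21.8 TPM with PBS, 311, 306 and 259 with MSUc, 156, 148 and 115 with CPPD, and 73.4, 55.6 and 55.8 with Silica. The 4 groups do not overlap, and the rises were 3.63, 2.57 and 1.40 (± 0.15). Srxn1, which repairs oxidised peroxiredoxins, rose by 3.09, 2.14 and 1.18 (± 0.19), and Txnrd1, a thioredoxin reductase, by 3.08, 2.75 and 1.39 (± 0.12).

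Other genes of oxidative stress did not all separate the crystals. Hmox1, which degrades heme, was at 282, 344 and 363 TPM with PBS, 3483, 3715 and 3890 with MSUc, 3849, 3460 and 3737 with CPPD, and 1133, 993 and 1184 with Silica. Its levels with the crystals overlap. Slc7a11, the cystine importer, was at 0.489 to 0.850 TPM with PBS, 41.9 to 49.5 with MSUc, 58.6 to 72.5 with CPPD and 14.8 to 20.7 with Silica, and its difference between CPPD and MSUc, 0.44, did not pass (adjusted p = 0.158). Sqstm1, the autophagy receptor p62 and an NRF2 target, rose by 2.59, 2.37 and 1.10 (± 0.07). Procr, the endothelial protein C receptor and no member of the list, was at 10.0, 7.81 and 5.21 TPM with PBS, 289, 271 and 294 with MSUc, 151, 142 and 136 with CPPD, and 35.3, 33.9 and 32.0 with Silica. Its groups separate in the order seen for Gclc.

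Genes of amino acid shortage also ranked MSUc first. In the integrated stress response list of 23, 19 rose with MSUc, 14 with CPPD and 10 with Silica, and 0, 0 and 6 fell. Among all genes 20.1%, 19.3% and 28.7% rose, and 29.2% were lower with Silica than with MSUc. Silica was lower than MSUc at 19 of 23. CPPD was lower at 9, and at 17 with a replicate block. Asns, asparagine synthetase, was at 16.1, 22.4 and 21.9 TPM with PBS, 84.8, 82.4 and 99.2 with MSUc, 59.6, 56.5 and 69.5 with CPPD, and 33.5, 47.4 and 38.8 with Silica, and rose by 2.10, 1.58 and 0.95 (± 0.15). Slc3a2, the heavy chain of several amino acid importers, rose by 1.85 with MSUc and 1.10 with CPPD (± 0.06), and its difference with Silica was 0.10 (adjusted p = 0.193). Trib3, a pseudokinase induced by ATF4, was at 1.83, 5.93 and 4.69 TPM with PBS, 21.8 to 30.0 with MSUc, 8.65 to 12.1 with CPPD and 1.49 to 2.68 with Silica. Gdf15, a stress cytokine, departed from this order, with rises of 4.62, 3.63 and 3.86 (± 0.20).

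Genes of sugar use were mostly lower with silica than with the crystals. Of 25 tested glycolysis and hypoxia genes, 21 rose with MSUc and 24 with CPPD, with no falls (medians 0.96 and 0.92), whereas Silica raised 10 and lowered 8. The rising share of all genes was 20.1% with MSUc and 19.3% with CPPD. With Silica 28.7% of all genes rose and 40.7% fell, so the list stood nearer to all genes there. CPPD was higher than MSUc at 7 and lower at 5, and Silica was lower than each crystal at 21 of the 25. Slc2a1, the glucose transporter GLUT1, was at 35.3, 32.8 and 36.7 TPM with PBS, 292, 297 and 310 with MSUc, 278, 262 and 283 with CPPD, and 85.8, 76.2 and 88.0 with Silica, rising by 3.06, 2.94 and 1.23 (± 0.11). Ldha, lactate dehydrogenase A, rose by 1.11, 0.92 and 0.56 (± 0.07). Hilpda, a lipid droplet protein induced by hypoxia, was an exception, at 8.09 to 8.39 TPM with PBS, 137 to 183 with MSUc, 54.7 to 73.4 with CPPD and 147 to 197 with Silica.

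Immediate early genes put CPPD last. In this list of 26, 22 rose with MSUc, 18 with CPPD and 22 with Silica, and 2, 3 and 3 fell (medians 1.60, 1.01 and 1.78), and CPPD was lower than MSUc at 15 and higher at none. Among all genes 20.1%, 19.3% and 28.7% rose, and 13.1% were lower with CPPD than with MSUc. Nr4a2, an orphan nuclear receptor, was at 4.48, 3.33 and 3.60 TPM with PBS, 32.6, 44.3 and 39.9 with MSUc, 3.69, 5.97 and 4.30 with CPPD, and 68.9, 56.0 and 61.2 with Silica. The CPPD and PBS libraries overlap, with a difference of 0.22 (adjusted p = 0.199), while MSUc and Silica rose by 3.05 and 3.72 (± 0.15). Nr4a1, its relative, rose with MSUc (1.79) and Silica (2.13), and its difference with CPPD was -0.32 (adjusted p = 0.153). Dusp1, a phosphatase that switches off MAP kinases, rose by 3.06, 1.99 and 3.67 (± 0.15). Egr1, a growth factor-induced transcription factor, rose by 0.73, 0.85 and 2.60 (± 0.22). Ifrd1, a transcriptional co-regulator outside this list, also had its lowest rise with CPPD: 4.23, 3.10 and 4.66 (± 0.12).

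Heat shock genes had their highest median with silica, though not every member did. Of 14 tested, 10 rose with MSUc, 6 with CPPD (10 after median-of-ratios scaling) and 11 with Silica. Falls numbered 0, 0 and 2, and the medians were 0.57, 0.26 and 0.92. Over all genes 20.1%, 19.3% and 28.7% rose. Silica was higher than MSUc at 7 and lower at 3, and higher than CPPD at 11 and lower at 3. Hspa1a, an inducible HSP70, was at 1.50, 1.84 and 0.944 TPM with PBS, 5.88, 6.07 and 6.17 with MSUc, 4.41, 4.35 and 2.85 with CPPD, and 16.6, 13.9 and 16.9 with Silica. The Silica libraries lie above the rest, and Hsp90aa1, a cytosolic chaperone, rose by 1.62, 1.09 and 2.39 (± 0.09). The metal-binding metallothionein Mt2 rose by 1.69, 3.5 and 3.11 (± 0.23).

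Several large falls occurred with each particle. Engase, a cytosolic enzyme that trims free glycans, was at 49.7, 53.6 and 55.2 TPM with PBS, 4.01, 2.42 and 2.76 with MSUc, 2.27, 2.49 and 2.54 with CPPD, and 3.14, 3.11 and 3.01 with Silica. The particle groups overlap one another, and the differences from PBS were -3.75, -3.97 and -3.72 (± 0.13). Lpar5, a lysophosphatidic acid receptor, differed by -2.92, -3.30 and -2.89 (± 0.22), and Bmf, a pro-apoptotic BCL2 family member, by -2.77, -2.78 and -3.12 (± 0.17). Sesn1, a sestrin that restrains mTORC1, was graded: 98.3, 107 and 94.2 TPM with PBS, 10.9, 8.23 and 8.69 with MSUc, 17.2, 13.7 and 11.4 with CPPD, and 37.7, 35.8 and 29.9 with Silica. Of 9 tested genes of AMPK and of mTORC1 restraint, 7 fell with each particle (5 with MSUc after median-of-ratios scaling). The falling shares of all genes were 42.4%, 41.9% and 40.7%. Deptor, an mTOR inhibitor, fell by 1.72, 1.65 and 0.99, and Prkag2, a regulatory subunit of AMPK, by 1.53, 1.70 and 1.29.

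Macrophage identity genes fell as a group. Of 21 tested, 19 fell with MSUc, 17 with CPPD and 17 with Silica, against 42.4%, 41.9% and 40.7% of all genes, and after median-of-ratios scaling the falls with MSUc and CPPD numbered 13 and 8. Mertk, a receptor for the uptake of dying cells, was at 51.0, 46.4 and 52.1 TPM with PBS, 7.08, 7.69 and 7.62 with MSUc, 10.5, 11.1 and 11.3 with CPPD, and 14.5, 16.3 and 16.1 with Silica. The groups are in that order without overlap, and the differences from PBS were -2.59, -2.09 and -1.61 (± 0.13). Maf, a transcription factor of resident macrophages, fell by 2.61, 1.93 and 2.07 (± 0.13). Irf8, a myeloid lineage factor, fell most with Silica, by 2.11 against 1.25 and 1.14 (± 0.11). Csf1r, the M-CSF receptor, was at 1718 to 2005 TPM with PBS and at 618 to 879 with Silica, a difference of -1.29 ± 0.11.

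Cytosolic ribosomal protein genes mostly shifted upward by a small amount with silica. Of 27 tested, 16 rose and 1 fell with Silica, and 20 were higher with Silica than with MSUc and 22 than with CPPD. The 1 that fell was Rpl8, of the large subunit, by 0.49, and the other 10 did not pass. Over all genes 28.7% rose and 40.7% fell with Silica, and 34.4% were higher with Silica than with MSUc and 34% than with CPPD. With CPPD 15 fell and 1 rose, or 5 and 2 after median-of-ratios scaling and 9 and 1 without the libraries numbered 1. With MSUc 7 fell and 1 rose, which became 0 and 4 after that scaling. Over all genes 41.9% fell with CPPD and 42.4% with MSUc on the deposited scale. Rps14, of the small subunit, was at 518, 482 and 441 TPM with PBS, 438, 431 and 408 with MSUc, 348, 331 and 288 with CPPD, and 684, 635 and 635 with Silica. The Silica libraries are highest and the CPPD libraries lowest, with a difference of 1.02 ± 0.08. Many of these genes have near-identical copies elsewhere in the genome, so their levels are uncertain, and they are short, the class that was higher with Silica.

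Lysosomal genes divided by function in Tfe3KO cells. Over all genes, 20.1%, 19.3% and 28.7% rose and 42.4%, 41.9% and 40.7% fell with MSUc, CPPD and Silica. Subunits of the V-ATPase, the pump that acidifies lysosomes, rose: 14 of 18 with MSUc, 9 with CPPD (16 after median-of-ratios scaling) and 11 with Silica, with 0, 1 and 3 falls and medians of 0.43, 0.28 and 0.87. Hydrolases fell: 30 of 41 with MSUc, 31 with CPPD and 27 with Silica, against 7, 5 and 8 rises, or 21, 22 and 25 against 9, 8 and 9 after that scaling. Among 22 lysosomal membrane genes 13, 13 and 16 fell and 7, 5 and 3 rose on the deposited scale, while after scaling MSUc had 9 rises and 8 falls. Among 26 autophagy genes 12, 17 and 16 fell and 4, 6 and 7 rose, and after scaling MSUc had 9 rises and 8 falls. With MSUc the autophagy median was -0.21, the same as over all genes. Of 15 folliculin and Rag genes 8, 4 and 8 rose and 5, 6 and 5 fell (medians 0.17, 0.01 and 0.29), and with CPPD 6 and 4 after scaling.

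Atp6v1h, a regulatory subunit of the pump's cytosolic sector, was at 36.4, 43.4 and 37.1 TPM with PBS, 137, 101 and 143 with MSUc, 96.0, 86.0 and 96.5 with CPPD, and 140, 135 and 150 with Silica. All particle libraries lie above PBS, and the rises were 1.67, 1.24 and 1.84 (± 0.11). Atp6v1a, the catalytic subunit whose promoter holds 1 E-box, rose by 0.58, 0.29 and 1.23 (± 0.08), and Atp6v1c1, a stator subunit, by 1.28, 0.49 and 1.66 (± 0.09). Tcirg1, the membrane subunit a3 typical of osteoclasts and secretory lysosomes, went against them: 310, 389 and 417 TPM with PBS, 709, 658 and 706 with MSUc, 465, 482 and 503 with CPPD, and 263, 256 and 265 with Silica. It rose with the crystals, by 0.90 and 0.39, and fell by 0.49 with Silica. Osteoclast markers summed to 63.4 to 83.4, 63.8 to 95.0, 138 to 146 and 61.7 to 94.6 TPM in the same groups, and their part in these values was not tested.

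Sgsh, the sulfamidase that degrades heparan sulfate, fell furthest among the hydrolases described here: 55.2, 54.0 and 56.1 TPM with PBS, 7.19, 7.62 and 6.80 with MSUc, 4.87, 6.80 and 5.23 with CPPD, and 7.50, 9.48 and 8.78 with Silica. The differences were -2.78, -3.09 and -2.56 (± 0.11), and every particle library was far below PBS. Galc, galactosylceramidase, fell with the crystals, by 0.96 and 0.95, while Gla, alpha-galactosidase, rose by 1.17, 0.40 and 0.79 (± 0.08). Ctsz, a cathepsin, rose with MSUc (0.65) and CPPD (0.86) and differed by -0.08 with Silica (adjusted p = 0.277). Scarb2, a lysosomal membrane receptor, fell by 1.50, 1.35 and 1.00 (± 0.06). Ulk2, a kinase that starts autophagy, fell by 1.42, 1.42 and 1.31 (± 0.09), and Calcoco1, an autophagy receptor, by 1.38, 1.28 and 1.75 (± 0.09).

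The remaining family members responded in Tfe3KO cells. Mitf was at 32.4, 24.1 and 30.2 TPM with PBS, 64.8, 47.0 and 50.9 with MSUc, 108, 93.8 and 104 with CPPD, and 78.8, 68.5 and 72.2 with Silica, rising by 0.88, 1.79 and 1.32 (± 0.12). Tfec, a member restricted to the myeloid lineage, was at 8.30, 9.40 and 6.86 TPM with PBS and rose by 1.71, 2.69 and 1.64 (± 0.13). Both peaked with CPPD. Tfeb was at 57.2, 57.5 and 56.1 TPM with PBS, 45.0, 41.7 and 41.2 with MSUc, 38.5, 32.5 and 38.7 with CPPD, and 22.8, 19.8 and 19.4 with Silica, falling by 0.41, 0.63 and 1.42 (± 0.09), of which the fall with MSUc did not pass after median-of-ratios scaling (-0.17). The Tfe3 transcript itself rose by 0.32 and 0.44 with the crystals and fell by 0.87 with Silica (± 0.08), to 31.1 to 43.2 TPM.

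**Figure D2:**
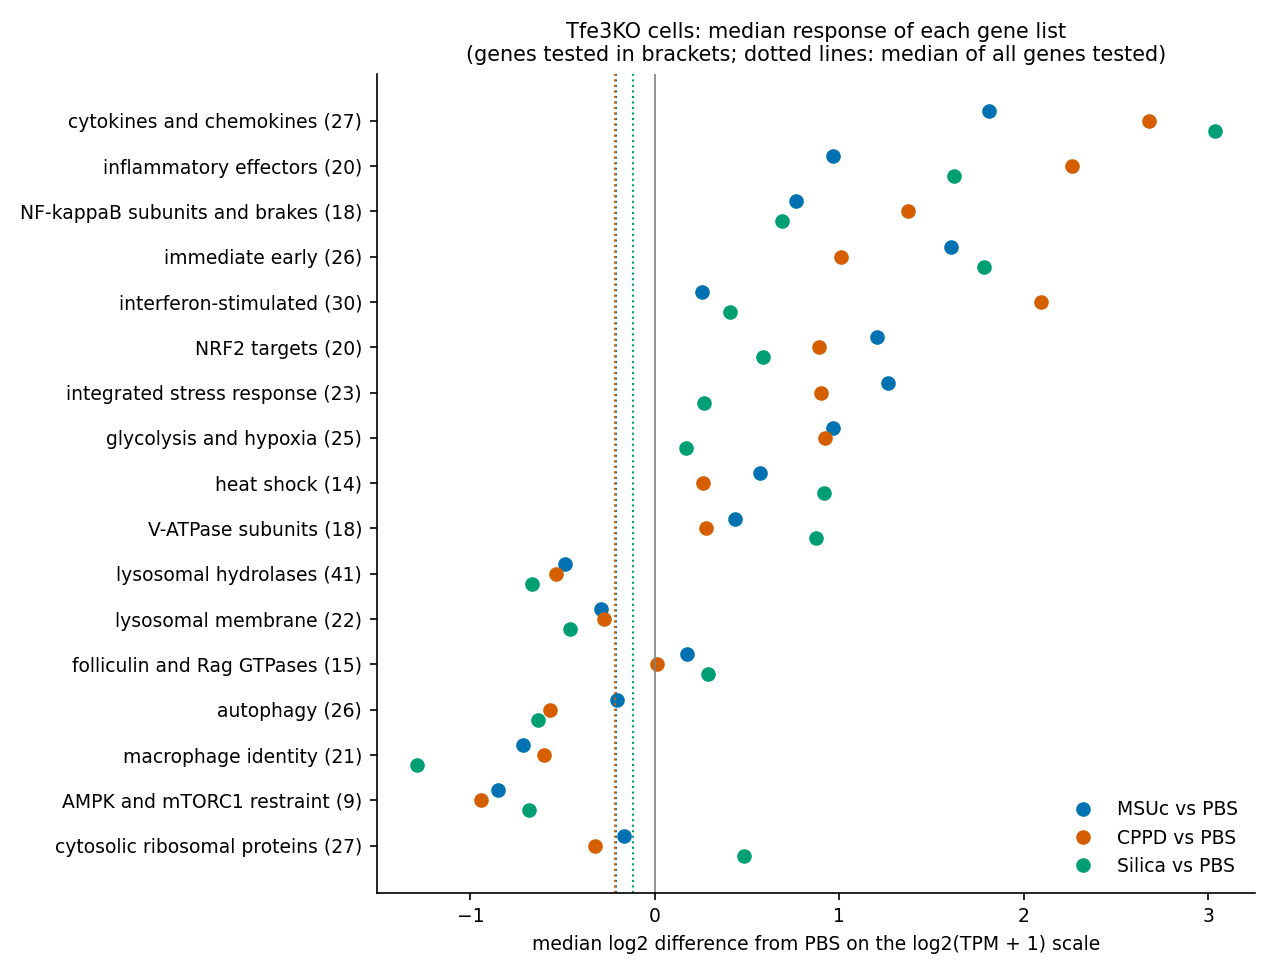
Median log2 difference from PBS in Tfe3KO cells for 17 gene lists, with tested members in brackets and dotted lines at the medians of all 12796 genes, by particle. Interferon-stimulated genes stand out with CPPD at 2.09, cytokines are highest with Silica at 3.04, and NRF2 targets and integrated stress response genes with MSUc at 1.2 and 1.27.

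How much of the wild-type response remained was read from genes chosen in Tfe3WT alone, whose group means share no library with those of Tfe3KO. The spread of each gene was estimated over all 24 libraries, so calls in Tfe3WT and Tfe3KO are not independent. Of 792 genes that rose by at least 1 log2 with MSUc in Tfe3WT, 746 (94.2%) also rose in Tfe3KO. The figures were 654 of 692 (94.5%) for CPPD and 861 of 913 (94.3%) for Silica. Of the falls of that size, 931 of 966 (96.4%), 856 of 889 (96.3%) and 1162 of 1197 (97.1%) fell in Tfe3KO. These shares can be read against the 20.1%, 19.3% and 28.7% of all genes that rose in Tfe3KO and the 42.4%, 41.9% and 40.7% that fell. The median size for the MSUc rises was 1.45 in Tfe3WT and 1.34 in Tfe3KO. It was 1.53 and 1.57 for CPPD and 1.38 and 1.35 for Silica, although a choice made in Tfe3WT favours large values there.

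Lists chosen at 1 log2 in each genotype overlapped less fully. With MSUc, 575 rises were on both lists, 72.6% of the Tfe3WT list and 82.6% of the Tfe3KO list. CPPD gave 578 (83.5% and 79.9%) and Silica 718 (78.6% and 69.6%). For falls with Silica the shared 1083 were 90.5% of the Tfe3WT list and 59.3% of the longer Tfe3KO list.

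**Figure D3:**
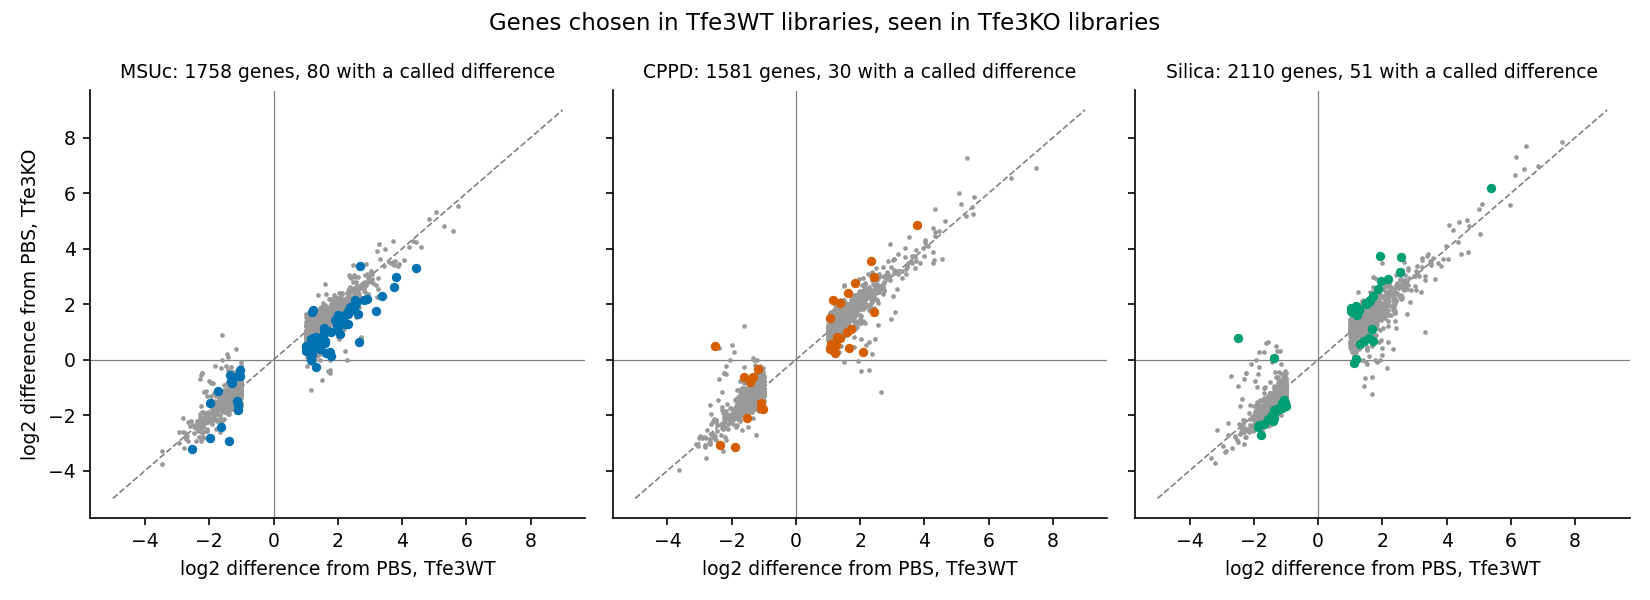
Log2 difference from PBS in Tfe3WT (horizontal) and in Tfe3KO (vertical) for genes called at 1 log2 or more in Tfe3WT, by particle, with genes whose responses differ between genotypes (limma adjusted p under 0.05) coloured and the dashed line marking equal responses. Most points lie near the line, and 80 of 1758 genes for MSUc, 30 of 1581 for CPPD and 51 of 2110 for Silica are coloured. The choice of genes favours large responses in Tfe3WT.

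Tests of the difference in response between genotypes called far fewer genes. The MSUc response differed at 221 genes (1.73%), 168 (1.31%) lower and 53 (0.414%) higher in Tfe3KO. The CPPD response differed at 119 (0.93%), 76 (0.594%) lower and 43 (0.336%) higher, and the Silica response at 194 (1.52%), 135 (1.06%) lower and 59 (0.461%) higher. With the replicate number as a block the counts were 402, 280 and 401, and without the Tfe3KO libraries numbered 1 they were 340, 170 and 638. Leaving out Tfe3KO PBS replicate 1 alone gave 422, 327 and 729. Fitting only the compared groups gave 78, 43 and 11. Median-of-ratios scaling gave 163, 112 and 148, and for Silica turned the split from 59 higher and 135 lower to 86 higher and 62 lower. A choice of genes in Tfe3WT favours large responses there, which tilts this test towards smaller ones in Tfe3KO. Of the 792 rises with MSUc so chosen, 62 were smaller in Tfe3KO by this test and 3 larger. The corresponding counts were 11 and 8 for CPPD and 7 and 19 for Silica. Without the Tfe3KO libraries numbered 1 they were 73 and 6 for MSUc, 11 and 7 for CPPD and 19 and 28 for Silica. Falls with Silica leaned towards larger ones in Tfe3KO, 23 against 2 smaller of 1197. The count of larger falls was 5 after median-of-ratios scaling, 63 with the block and 79 without Tfe3KO PBS replicate 1. Without the Tfe3KO libraries numbered 1 it was 80, against 5 smaller.

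A small set of genes rose with the particles in Tfe3WT and had a lower response in Tfe3KO. Slc25a44, a mitochondrial carrier of branched-chain amino acids, was at 13.8, 14.8 and 12.7 TPM in Tfe3KO with PBS, 17.4, 17.4 and 15.5 with MSUc, 13.8, 15 and 14.3 with CPPD, and 9.99, 9.68 and 10.1 with Silica. In Tfe3WT it was at 14.9, 13.8 and 15.3 TPM with PBS, 50.7, 53.2 and 53.0 with MSUc, 30.6, 30.6 and 26.7 with CPPD, and 23.8, 25.2 and 24.3 with Silica. The PBS libraries of the genotypes overlap, while every Tfe3WT particle library lies above every Tfe3KO library. The responses in Tfe3KO were lower by 1.50, 0.89 and 1.13 log2 (± 0.10, limma adjusted p = 1.9e-08, 8.56e-05 and 2.71e-06). Amz1, a metallopeptidase, was at 5.41 to 7.68 TPM in Tfe3KO with PBS or MSUc and at 2.94 to 4.10 with CPPD or Silica, against 22.5 to 30.4, 10.6 to 14.8 and 11.2 to 14.0 TPM with the particles in Tfe3WT. Its responses in Tfe3KO were lower by 1.66, 1.48 and 1.32 (± 0.21). Plcxd2, a phospholipase-like protein, was at 1.21, 1.61 and 1.34 TPM with MSUc in Tfe3KO and 7.42, 10.8 and 8.13 in Tfe3WT, a response lower by 2.02 ± 0.23 (adjusted p = 0.000138).

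Lysosomal genes were among those whose response was lower. Of 41 hydrolases, 5 had a lower response in Tfe3KO to MSUc, 5 to CPPD and 8 to Silica (5 after median-of-ratios scaling), and of 22 membrane genes 4, 3 and 4. None had a higher one, and the median differences were -0.23, -0.23 and -0.22 for hydrolases against -0.01, -0.00 and -0.06 for all genes. Ctns, the cystine exporter, was at 17.5, 21.3 and 20.1 TPM in Tfe3KO with PBS, 17.2, 15.2 and 16.7 with MSUc, 15.6, 13.8 and 14.0 with CPPD, and 14.6, 13.9 and 12.4 with Silica. In Tfe3WT it was at 22.1, 23.7 and 22.7 TPM with PBS and at 40.9 to 46.8, 29.7 to 32.1 and 29.0 to 30.8 with the particles. The Tfe3WT particle libraries all lie above PBS and the Tfe3KO particle libraries all lie below theirs, and the responses were lower by 1.17, 0.84 and 0.88 (± 0.11).

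Neu1, a sialidase, had a difference from PBS of -0.15 with MSUc in Tfe3KO (adjusted p = 0.0842) and fell by 0.56 with CPPD and 0.76 with Silica, responses lower than in Tfe3WT by 0.62, 0.64 and 0.55 (± 0.11). Naglu, which degrades heparan sulfate, fell in Tfe3KO by 0.57, 0.79 and 1.51, lower by 0.54, 0.71 and 0.70 (± 0.13). For CPPD and Silica this difference did not pass when only the compared groups were fitted. Mcoln1, the lysosomal calcium channel whose printed promoter holds 2 E-boxes, was at 29.5, 30.4 and 28.4 TPM with PBS in Tfe3KO and 18.8 to 21.0, 16.6 to 20.2 and 14.6 to 15.4 with the particles. In Tfe3WT it was at 38.2 to 41.2 TPM with PBS, 38.4 to 42.3 with MSUc, 35.1 to 39.4 with CPPD and 27.1 to 27.4 with Silica. Its responses were lower by 0.55, 0.59 and 0.38 (± 0.10). The difference for Silica (adjusted p = 0.0484) did not pass after median-of-ratios scaling (-0.32) or when most single libraries were left out, and that for CPPD did not pass with the compared groups alone.

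Regulators of mTORC1 at the lysosome were also among them. Rragc, the Rag GTPase C, was at 83.6 to 97.2 TPM in Tfe3KO with PBS and 91.6 to 117 with the particles, while in Tfe3WT it went from 91.2 to 96.3 TPM to 172 to 190 with MSUc, 128 to 148 with CPPD and 161 to 163 with Silica. The responses were lower by 0.77, 0.55 and 0.54 (± 0.09), the last of which did not pass with the compared groups alone. Flcn, folliculin, fell with CPPD in Tfe3KO from 30.7, 30.2 and 27.2 to 18.1, 14.4 and 15.3 TPM, a response lower by 0.68 ± 0.10. Mfsd1, a lysosomal dipeptide transporter with 5 E-boxes in the printed window, was at 83.0, 90.5 and 94.3 TPM with PBS and 78.0, 73.6 and 82.7 with MSUc in Tfe3KO, and at 98.9 to 113 and 133 to 140 in Tfe3WT. Its response was lower by 0.54 ± 0.08 for MSUc and by 0.36 for Silica. Arfgef2, an exchange factor of vesicle traffic with 2 E-boxes, was at 14.4 to 14.9 TPM with MSUc in Tfe3KO and 31.2 to 34.4 in Tfe3WT. Its response was lower by 0.89 for MSUc, 0.62 for CPPD and 0.50 for Silica (± 0.11). Atp6v1h differed less between genotypes: its response differences were -0.44, -0.23 and -0.18 (adjusted p = 0.205, 0.658 and 0.634), and a p that misses the threshold does not show that they are equal.

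Responses outside the lysosome were lower too. Osm rose with MSUc in both genotypes, to 37.9, 41.5 and 41.4 TPM in Tfe3KO and 67.6, 70.2 and 61.6 in Tfe3WT, a difference of -0.82 ± 0.16 that did not pass with voom weights. Pfkfb3, which makes the glycolytic activator fructose 2,6-bisphosphate, was at 11.5 to 12.7 TPM with PBS, 28.9 to 32.5 with MSUc, 48.7 to 60.1 with CPPD and 17.2 to 19.6 with Silica in Tfe3KO. In Tfe3WT the particle values were 54.0 to 57.0, 50.1 to 54.9 and 28.2 to 29.4 TPM. The response was lower in Tfe3KO by 0.95 for MSUc and 0.74 for Silica (± 0.12, the latter not with the compared groups alone) and differed by -0.07 for CPPD (adjusted p = 0.901).

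**Figure D4:**
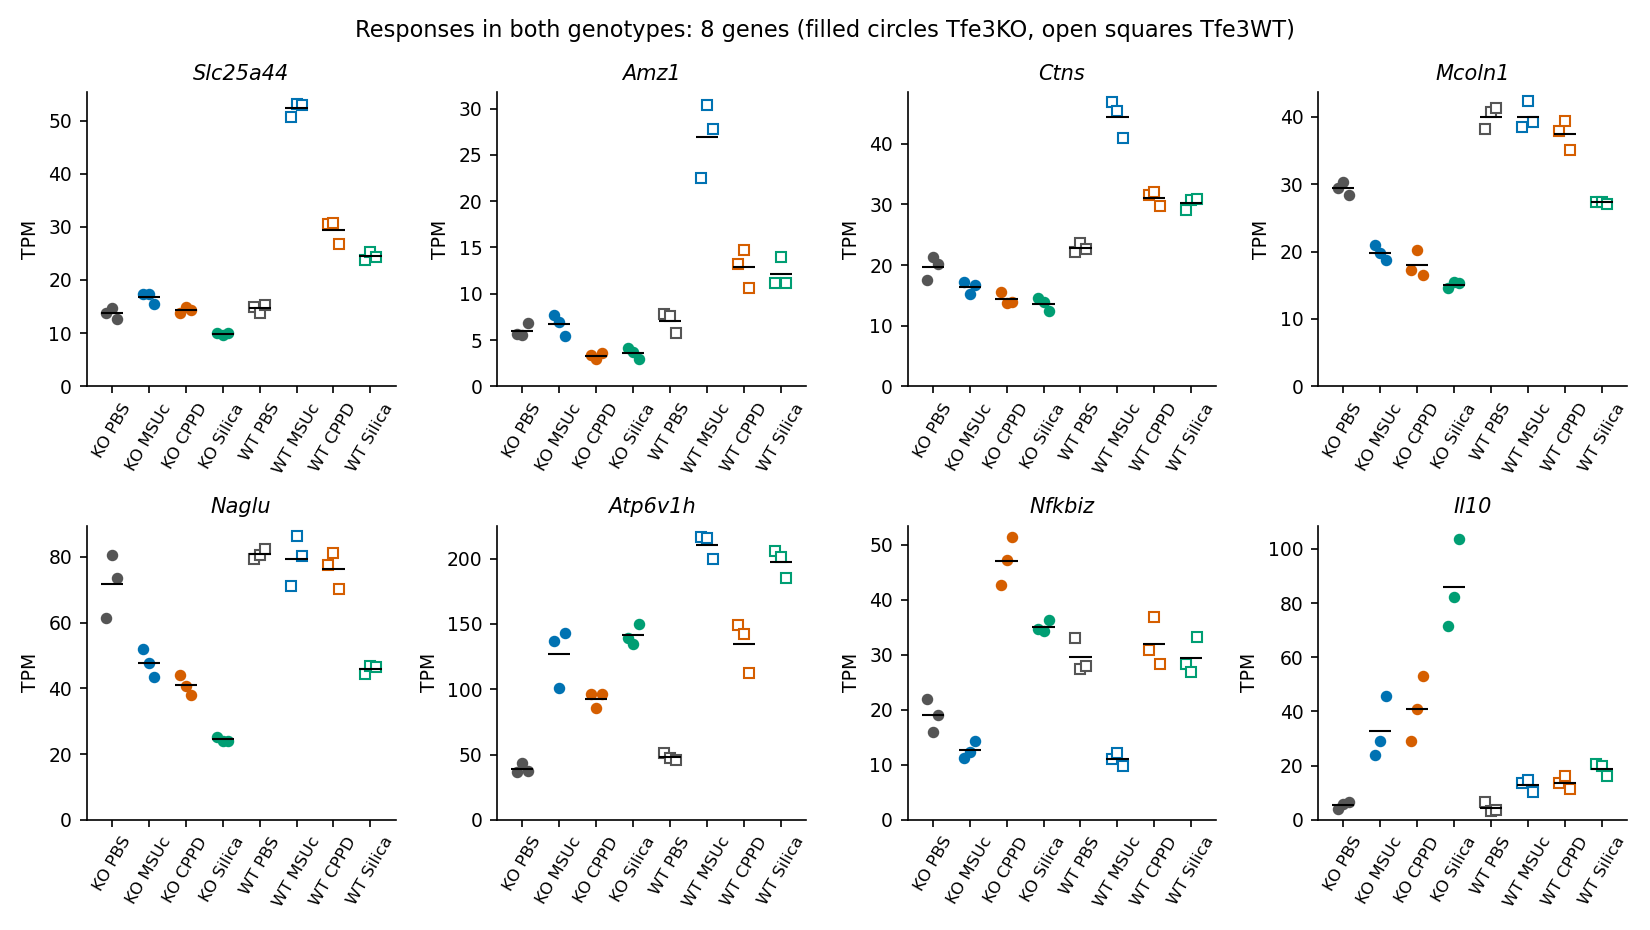
TPM of 8 genes over the 8 groups, with Tfe3KO as filled circles, Tfe3WT as open squares, each symbol a library and each line the mean of 3. Slc25a44, Amz1 and Ctns rise with particles in Tfe3WT and stay near or below PBS in Tfe3KO. Mcoln1 and Naglu fall in Tfe3KO, with lower responses than in Tfe3WT, where Mcoln1 falls with Silica only. Atp6v1h rises in both, and Nfkbiz (with CPPD) and Il10 (with Silica) reach higher levels in Tfe3KO.

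Some differences in response were positive, meaning a larger rise or a smaller fall in Tfe3KO. Nfkbiz, an atypical nuclear regulator of NF-kappaB, was at 22, 16 and 19.1 TPM with PBS, 11.3, 12.3 and 14.3 with MSUc, 42.7, 47.1 and 51.4 with CPPD, and 34.7, 34.3 and 36.3 with Silica in Tfe3KO. In Tfe3WT it was at 27.4 to 33.1 TPM with PBS, 9.76 to 12.2 with MSUc, 28.3 to 36.8 with CPPD and 26.9 to 33.3 with Silica. The PBS libraries were thus lower in Tfe3KO, Nfkbiz fell less with MSUc there than in Tfe3WT, and the differences in response were 0.80, 1.16 and 0.86 (± 0.17, adjusted p = 0.0181, 0.00129 and 0.0175). That for MSUc did not pass without Tfe3KO PBS replicate 2 (0.69), Tfe3KO MSUc replicate 3 (0.72), Tfe3WT PBS replicate 1 (0.72) or Tfe3WT MSUc replicate 3 (0.73), nor that for Silica without Tfe3KO PBS replicate 2 (0.75) or Tfe3WT Silica replicate 1 (0.84). Msr1, a scavenger receptor of macrophages, was at 37.8, 35.8 and 36.2 TPM with PBS and 176, 166 and 162 with CPPD in Tfe3KO, and at 47.0 to 51.5 and 104 to 114 TPM in Tfe3WT, a response larger by 1.01 ± 0.11.

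Il10 with Silica was at 71.6, 82.2 and 104 TPM in Tfe3KO and 20.6, 19.8 and 16.1 in Tfe3WT, from 4.13 to 6.58 and 3.12 to 6.41 TPM with PBS. The response was larger by 1.79 ± 0.36 (adjusted p = 0.0181), and did not pass without Tfe3KO Silica replicate 3 (1.65), with voom weights or with the compared groups alone. Nr4a2 with Silica reached 56.0 to 68.9 TPM in Tfe3KO and 22.9 to 28.5 in Tfe3WT, larger by 1.14 ± 0.21. The Tfe3 transcript rose with MSUc in Tfe3KO and lay at 79.7 to 83.3 TPM in Tfe3WT against 94.2 to 104 with PBS, a difference of 0.58 ± 0.12 (adjusted p = 0.0119). No member of the interferon-stimulated, NRF2 or integrated stress response lists passed the test between genotypes for any particle. The power of that test was limited at small sizes. Simulated differences of 1 log2 were recovered at 88.1%, 83.6% and 88.1% and of 0.5 log2 at 15.2%, 9.1% and 18.2% for MSUc, CPPD and Silica. The simulation gave every gene the same spread and changed only genes with many reads. These rates cannot be carried over to genes with a wider spread, and Isg15 had a SE of 0.38 for each particle.

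The E-box was more frequent in promoters of genes with a lower response in Tfe3KO. CACGTG was found, on either strand, in 32 of 129 such promoters for MSUc (24.8%), 15 of 55 for CPPD (27.3%) and 29 of 111 for Silica (26.1%), against 10.5% of all 9493. A lower response here joins smaller rises and larger falls. Among genes called in Tfe3WT these numbered 115 and 21 for MSUc, 36 and 25 for CPPD, and 22 and 92 for Silica. In promoters of genes with a positive difference, a larger rise or a smaller fall, CACGTG was found in 1 of 41, 2 of 30 and 5 of 42. Strong responses within Tfe3KO stood nearer to the overall share, at 14.4%, 9.89% and 12.1% of promoters of rising genes and 8.82%, 10.9% and 10.8% of falling ones. These are counts without a test, over lists that share genes between particles.

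The series also holds peaks of TFE3 and TFEB binding gained with MSUc, of which 4446 and 5667 were used here. All lie at least 3004 and 3001 bases from the nearest start, so promoters are outside these lists. Of 2106 tested genes nearest to a TFE3 peak, 34.3% rose and 36.7% fell with MSUc in Tfe3KO, against 20.1% and 42.4% of all genes. For 2279 genes nearest to a TFEB peak the shares were 39.5% and 31.0%, and for 1304 nearest to both 42.6% and 30.9%. The MSUc response was lower in Tfe3KO than in Tfe3WT at 61 (2.90%), 64 (2.81%) and 48 (3.68%) of these genes, against 1.31% of all. In each set the rising share in Tfe3WT was within 1 percentage point of that in Tfe3KO, at 34.1%, 39.1% and 42.6%.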

How the data were processed

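RNA-seq was analysed in 24 libraries of bone marrow-derived macrophages, 12 titled Tfe3KO and 12 titled Tfe3WT. The deposited TPM values were made by the authors, with STAR and HOMER on mm10 per the submitters' processing notes, which give no versions. The unit was taken from the values, since the table's genes sum to 530073 to 552605 per library. Its 24940 genes were filtered to 12796 with at least 1 TPM in at least 3 of the 24 libraries. Log2 values with a pseudocount of 1 TPM were fitted for all 8 groups in 1 model with limma 3.58.1 (R 4.3.3, trended empirical Bayes, two-sided, Benjamini-Hochberg adjustment over all tested genes, calls under 0.05). The fit gave each particle against PBS, their mean, the particles against each other, and the difference in response between genotypes. Other steps used Python 3.11.15.

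Values times transcript length came out as whole reads (within 0.15 of a read) for at least 99.98% of values, so depths were recovered and voom was run on those reads as an alternative. None of 24 within-group pairs looked like copies of 1 library. Same-numbered Tfe3KO libraries deviated together (18 pairs, correlations 0.126 to 0.501, against -0.346 to 0.142 for differing numbers). In Tfe3WT the correlations were 0.0553 to 0.307, against -0.232 to 0.110 for differing numbers. The reported tests did not use the numbers as pairs. Only the replicate block alternative did, with terms for the number within both genotypes. The fit was tested on simulated data, with the same spread set for every gene and changes at few genes (66 or 67 at each size). Peak tables were annotated with HOMER per the file headers and used for the nearest gene.

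The members, gene lists and tests were chosen with earlier results of these data known. Genes were named by rule: up to 10 rises and falls per comparison by size (at least 1 log2, 5 TPM in the higher group, groups not overlapping), up to 10 differences between genotypes each way, the 4 members of smallest p per list and comparison, and the MiT/TFE family. Nlrp3, Egr1, Asns, Csf1r, Mfsd1 and Arfgef2 fall outside it and were chosen after their values were seen, and not every gene the rule picked is described. Promoters and positions come from RefSeq tables for GRCm38.p6, which matched 9493 of 12796 tested genes within 1000 bases of their start. Alternatives were the pseudocount, filter, scaling, voom, libraries fitted, a replicate block and leaving out libraries.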

Additional observations from a re-analysis of the deposited data

Results flagged for a closer look

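The results here were picked out because the response to a particle differed between Tfe3KO and Tfe3WT by limma's test of the difference itself. It did so at 221 genes for MSUc, 119 for CPPD and 194 for Silica. Values are log2 differences of the response, Tfe3KO minus Tfe3WT.

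Lower responses in Tfe3KO, for MSUc, CPPD and Silica in turn, were -1.50, -0.892 and -1.13 for Slc25a44, -1.66, -1.48 and -1.32 for Amz1, and -1.17, -0.845 and -0.884 for Ctns. Among lysosomal genes they were -0.547, -0.587 and -0.383 for Mcoln1, -0.544, -0.708 and -0.702 for Naglu, and -0.618, -0.636 and -0.549 for Neu1. Rragc gave -0.773, -0.553 and -0.536. Arfgef2 gave -0.888, -0.620 and -0.496. Mfsd1 gave -0.543 with MSUc and -0.360 with Silica. Values described for 1 particle were -2.02 for Plcxd2 and -0.821 for Osm with MSUc, and -0.679 for Flcn with CPPD. Pfkfb3 gave -0.946 with MSUc and -0.739 with Silica.

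Positive differences were 0.803, 1.16 and 0.865 for Nfkbiz, the first of them a smaller fall in Tfe3KO. They were 1.01 for Msr1 with CPPD, 1.79 for Il10 and 1.14 for Nr4a2 with Silica, and 0.582 for the Tfe3 transcript with MSUc. The 4 Tfe3KO libraries numbered 1 differ from the rest in Xist and Y-linked transcripts while no Tfe3WT library does, and their part in these differences was tested only by leaving them out.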

How the results depend on the processing

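Within Tfe3KO, the counts of genes called stayed within 1.5 times of the reported ones under every alternative run, including each left-out library. The reported counts were 7998 for MSUc, 7830 for CPPD and 8881 for Silica. Leaving out 1 library at a time gave 7338 to 7675 for MSUc, 7219 to 7664 for CPPD and 8370 to 8635 for Silica. It gave 8051 to 8568 for the mean of the particles and 2575 to 3157 for CPPD against MSUc. For Silica it gave 7597 to 7986 against MSUc and 7346 to 7908 against CPPD. The other alternatives ranged more widely, at 6745 to 8472 for MSUc, 6688 to 8394 for CPPD and 7611 to 9374 for Silica. For CPPD against MSUc they gave 2725 to 4014. Median-of-ratios scaling turned 4 small values positive, to 0.046 for Arfgef2 and 0.0513 for Mfsd1 with MSUc, and to 0.00541 for Adgre1 and 0.0477 for Atp6v0a1 in the mean of the particles.

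Counts of differing responses between genotypes were less stable. They were 78, 43 and 11 for MSUc, CPPD and Silica with the compared groups alone, 402, 280 and 401 with the replicate block, and 340 for MSUc and 638 for Silica without the Tfe3KO libraries numbered 1. Leaving out single libraries gave 128 (without Tfe3KO MSUc replicate 2) to 422 for MSUc, 67 (without Tfe3WT CPPD replicate 2) to 327 for CPPD and 52 (without Tfe3KO PBS replicate 3) to 729 for Silica, each highest without Tfe3KO PBS replicate 1. The replicate block changed no call of the 1296 gene results checked within Tfe3KO and 1 of 124 between genotypes. Leaving out 1 library ended 257 of 8892 gene calls within Tfe3KO and 316 of 1488 between genotypes. The cause of these changes was not tested.

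Alternatives for gene lists and for genes chosen in Tfe3WT were added after seeing the data. With 3 libraries a group, simulated differences of 0.5 log2 from PBS were recovered at 42.4% for MSUc, 36.4% for CPPD and 42.4% for Silica. Few genes changed in the simulations, while 61.2% to 69.4% were called against PBS here, which eases the adjusted threshold. These rates therefore cannot be carried over to the real contrasts with PBS. Small responses can still be missed at this depth.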
